A study of Sus scrofa with 12 samples.

Results

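The genes described here carry the signal that wakes resting follicles in the ovary: the ligand KITLG, its receptor KIT, the kinase PDPK1, the forkhead transcription factors FOXO1, FOXO3 and FOXO4, the TSC1 and TSC2 pair, and the cell cycle inhibitor CDKN1B. They were taken by exact symbol from the table of gene levels in porcine ovary, where all 9 were found among 29884 genes. The left ovary of each of 6 sows of a commercial piggery was taken 4 days after the 4th delivery, 3 from sows with small litter size (SLS, 8.48 piglets per litter; ovaries ZD2, ZD3 and ZD12) and 3 from sows with large litter size (LLS, 16.19 piglets per litter; ovaries ZD5, ZD7 and ZD8). No treatment was given, and the state of the follicles and corpora lutea in each ovary is not stated. Each ovary gave 1 library of RNA without ribosomal RNA, with levels in FPKM (fragments per kilobase of transcript, scaled to the depth of the library), and 1 small RNA library, with levels in RPM (reads scaled to the same total in each library).

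In a resting follicle the oocyte displays KIT and the granulosa cells around it make KITLG. Binding activates PI3K, PDPK1 then phosphorylates AKT, and AKT drives FOXO proteins out of the nucleus and relieves the brake that TSC1 and TSC2 put on mTOR. In mice, loss of Foxo3, Tsc1, Tsc2 or Cdkn1b sets off early activation of the follicle pool. KIT is also made by theca and interstitial cells and by mast cells, and FOXO1 is best known in granulosa cells, where it restrains genes of steroid synthesis and proliferation.

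FOXO1 has been proposed as a target of the miR-183 family in ovary, so the sequences through which the family could meet these genes are shown first. The mature miRNAs are given as deposited, in DNA letters from 5′ to 3′, with the seed (bases 2 to 8) in capitals.
miR-183: tATGGCACtggtagaattcactg
miR-96-5p: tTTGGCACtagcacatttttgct
miR-182: tTTGGCAAtggtagaactcacact
The 3 seeds differ from each other, so that the perfect matches are GTGCCAT for miR-183, GTGCCAA for miR-96-5p and TTGCCAA for miR-182. Of the other miRNAs measured, miR-1271-5p had the seed of miR-96-5p. The hairpins lie together on the plus strand of chromosome 18, from 18982269 (MIR183) to 18986913 (MIR182) in Sscrofa11.1.

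In the annotated 3′ UTR of FOXO1, 3381 nt long in the last exon of the gene, which lies on the minus strand of chromosome 11, a miR-183 match was found at positions 244 to 250 and a miR-96-5p match at positions 272 to 278, 28 nt further on. They are printed from the RefSeq annotation of Sscrofa11.1 on the transcript strand, with the 7 matching bases in capitals, because they are the only such matches in the UTR of FOXO1.
FOXO1, miR-183 match, chr11:15320348-15320374: ctgtagataaggactGTGCCATtggga
FOXO1, miR-96-5p match, chr11:15320320-15320346: tttcattacaatgaaGTGCCAAactca
The second match is followed by an A. FOXO1 had no match to bases 2 to 8 of miR-182, but GTGCCAA contains TGCCAA, the match to bases 2 to 7 of miR-182. This shorter match was present in 6 of the 9 genes (all but KIT, TSC1 and TSC2), in 32.7% of all 3′ UTRs searched and in 62.7% of those near the length of that of FOXO1. For comparison, the 3′ UTR of FOXO3 held 4 matches, of which 2 were to miR-182 and both were followed by an A.
FOXO3, miR-182 match, chr1:74755450-74755476: agagaaaaaaaccctTTGCCAAatctg
FOXO3, miR-182 match, chr1:74756255-74756281: tcagctgtccactcaTTGCCAAatgcc
FOXO4 held 1 match to miR-96-5p, KITLG 1 to miR-182 and PDPK1 1 to miR-183, and KIT, TSC1, TSC2 and CDKN1B held no match of 7 bases in the annotated UTR. On the transcript strand of 11611 tested genes, GTGCCAT was present in 9.76% of the 3′ UTRs, GTGCCAA in 9.64% and TTGCCAA in 12.8%. Among 1366 genes with a UTR of about the length of that of FOXO1 (0.8 to 1.25 times), the shares were 18.7%, 18.5% and 26.1%. A match to any of the 3 was present in 5 of the 9 genes, in 26.1% of all 3′ UTRs searched and in 49.7% of those near the length of that of FOXO1. A match of these letters describes the sequence and does not show binding.

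All 6 gene libraries held between 32272803 and 60903268 reads, the fewest in ZD8, and each of the 9 genes rested on at least 995 reads in every ovary. ZD8 stood apart from the other ovaries: the summed level of 7 luteal genes (STAR, CYP11A1, HSD3B1 and others) was 124 FPKM there and 9167 to 12191 FPKM in the other 5, while the summed level of 13 oocyte genes was 154 FPKM against 8.46 to 29.4 FPKM. Because a piece of ovary mixes cell types, fewer cells of a type and less RNA per cell cannot be told apart in any of these values. The differences of the 9 genes are therefore given with and without ZD8. Groups were compared by limma on log2(FPKM + 1) across 12260 genes, and a gene was called when its Benjamini-Hochberg adjusted p was below 0.05 and its difference exceeded 1 on the log2 scale.

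Between LLS and SLS, 0 of the 9 genes were called, as were 0 of all 12260 genes tested (0%) by limma. At an unadjusted p under 0.05 there were 0 of the 9 and 216 of all genes (1.76%), and DESeq2 on the recovered reads called 20 genes, none of the 9 among them. Every one of the 9 had SLS and LLS values that overlapped, where 5.12% of all genes had groups that did not. The median difference of LLS from SLS was 0.12 on the log2 scale over the 9 genes and 0.02 over all genes tested, and without ZD8 it was 0.015 and -0.097. These p-values compare 3 sows with 3 sows, and an exact two-sided permutation test cannot go below p = 0.1 at this size.

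**Figure D1:**
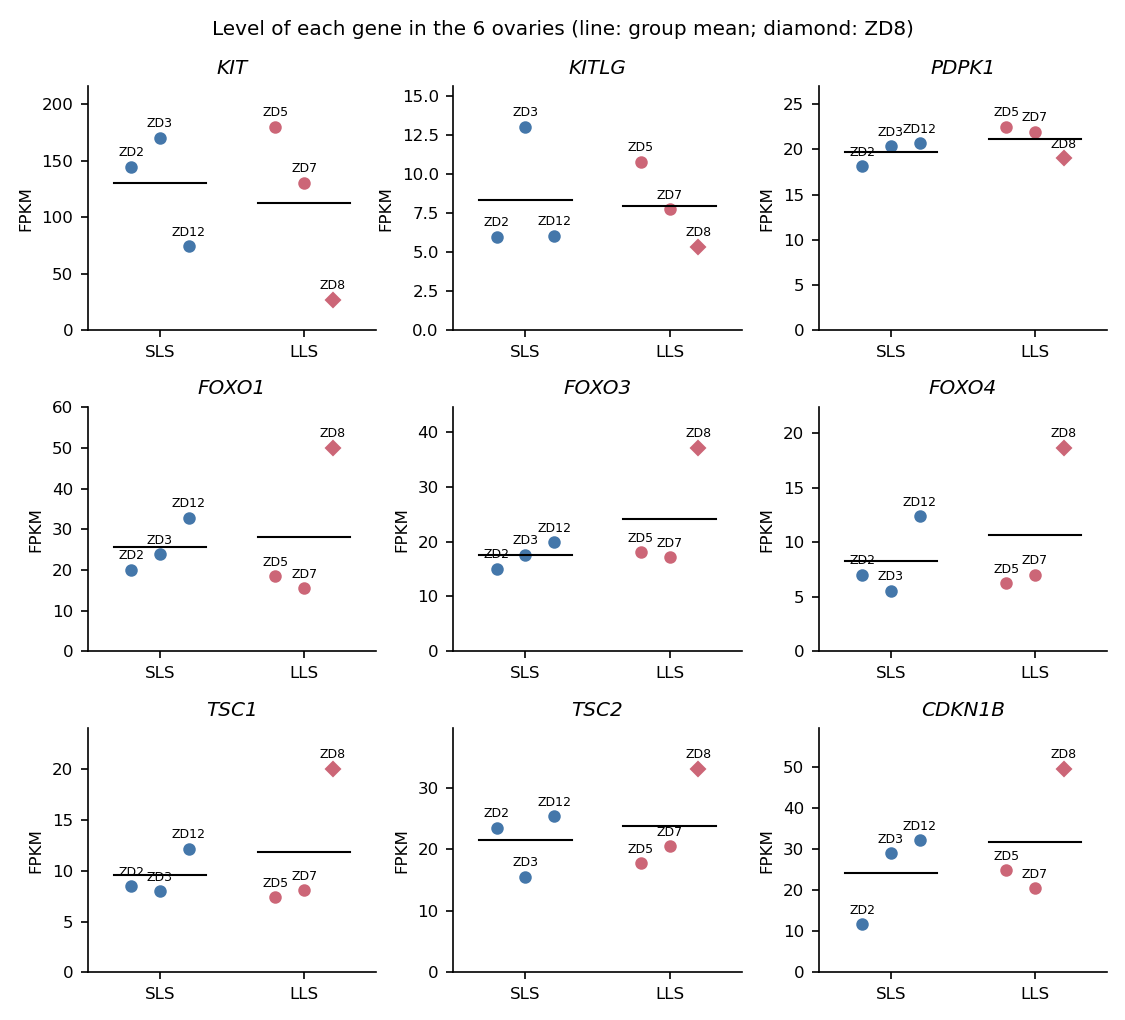
Level of each gene in FPKM (y axis, from 0) in the 3 SLS and 3 LLS ovaries, with a line at each group mean and a diamond for ZD8. ZD8 is the highest of the 6 ovaries for FOXO1, FOXO3, FOXO4, TSC1, TSC2 and CDKN1B and the lowest for KIT and KITLG, and the groups overlap in all 9 panels.

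KIT, the receptor tyrosine kinase (chromosome 8, 41402334 to 41492306, plus strand, 22 exons), was the most abundant of the 9 genes. Its SLS levels were 145 (ZD2), 170 (ZD3) and 74.5 FPKM (ZD12), and its LLS levels were 180 (ZD5), 130 (ZD7) and 27.1 FPKM (ZD8). The 2 highest values came from 1 ovary of each group, and the 2 lowest values likewise, so that litter size did not order the ovaries. The mean was 130 ± 49.6 FPKM in SLS (SD, n = 3) and 112 ± 77.9 FPKM in LLS (SD, n = 3), a difference of -0.50 on the log2 scale (standard error 0.69, adjusted p = 0.999 by limma, 95% interval -2.07 to 1.08). On the recovered reads of the same 6 ovaries the difference of KIT was -0.14 by edgeR and -0.15 by DESeq2. Without ZD8 the limma difference turned to 0.32 (standard error 0.36). Only in ZD8 was KIT not the first of the 9 genes by FPKM, where it was the fifth.

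KIT in ZD8 was 5.33 times below the median of the other 5 ovaries and 2.75 times below the lowest of them. ZD8 also had the lowest luteal sum and the highest oocyte sum given above, and the lowest summed level of 9 endothelial genes, 170 FPKM against 326 to 471 FPKM. The summed level of 7 theca genes ran the other way, with 523 FPKM in ZD8, 117 FPKM in ZD12 and 31.2 to 41.2 FPKM in the other 4 ovaries, so that the 2 ovaries with least KIT had the highest theca sums. The part of these cell types in the level of KIT was not tested. Across the 5 other ovaries KIT ranged 2.41-fold. Of these, ZD12 had the lowest KIT, the lowest luteal sum (9167 FPKM) and the highest oocyte sum (29.4 FPKM), and ZD5 had the highest KIT, the highest luteal sum (12191 FPKM) and the lowest endothelial sum (326 FPKM). Single luteal genes went against their sum: HSD3B1 was highest of the 5 in ZD12 (3707 FPKM), and CYP11A1 (1470 FPKM) and LHCGR (22.5 FPKM) were lowest of the 5 in ZD5. Single endothelial genes did so too. In ZD8, TEK (8.90 FPKM), TIE1 (5.28 FPKM) and EMCN (14.6 FPKM) were not lowest, while the rest of the list was. In ZD5, VWF (89.7 FPKM) and KDR (68.7 FPKM) were above every SLS ovary, while PECAM1, CDH5, TIE1, ESAM and CLDN5 were lowest of the 5. The mast cell genes that were found were scarce: CPA3 was listed at 0 FPKM in 5 ovaries, FCER1A was at most 0.628 FPKM and MS4A2 at most 2.01 FPKM. The sum over the 6 mast cell genes found was 5.81 to 14.1 FPKM in SLS and 3.96 to 7.72 FPKM in LLS. TPSAB1, TPSB2 and CMA1 of the same list of 9 had no level under these symbols, so they could not be read. HDC, which makes histamine, gave 11.8 of the 14.1 FPKM in ZD12.

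KITLG, the ligand of KIT, also called stem cell factor (chromosome 5, 94016992 to 94110219, plus strand), was the least abundant of the 9. It was at 6.01, 13.0 and 6.06 FPKM in ZD2, ZD3 and ZD12 (SLS) and at 10.8, 7.76 and 5.37 FPKM in ZD5, ZD7 and ZD8 (LLS). The single highest value was that of an SLS ovary, and the LLS values lay almost wholly within the SLS range. The group difference was -0.03 on the log2 scale (standard error 0.38, adjusted p = 0.999 by limma, 95% interval -0.89 to 0.84), and without ZD8 it was 0.20. The sum over 11 granulosa cell genes, the cells known to make KITLG, was 238 FPKM in ZD8 and 637 to 1271 FPKM in the others. This sum was carried by INHA, FST and NR5A2, and FSHR, AMH, FOXL2 and GATM of the same list were instead highest in ZD8 (10.8, 12.0, 37.8 and 12.8 FPKM). The part of these cells in the level of KITLG was not tested.

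The balance of ligand to receptor was measured within each ovary as the log2 ratio of KITLG to KIT, each with 1 FPKM added. It was -4.38, -3.61 and -3.42 in ZD2, ZD3 and ZD12 and -3.94, -3.91 and -2.14 in ZD5, ZD7 and ZD8. In every ovary the receptor was far more abundant than the ligand per length of transcript, and the gap was smallest in ZD8. The groups differed by 0.47 (exact permutation test, two-sided, p = 0.7, adjusted p = 0.9 over the 4 ratios tested here), and by -0.12 without ZD8.

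PDPK1, the kinase that switches on AKT (chromosome 3, 39429928 to 39512623, minus strand), varied least among the 9 genes. Its levels were 18.2, 20.4 and 20.7 FPKM in ZD2, ZD3 and ZD12 and 22.5, 22.0 and 19.0 FPKM in ZD5, ZD7 and ZD8, only 1.24-fold from lowest to highest. The difference of LLS from SLS was 0.10 on the log2 scale (standard error 0.24, adjusted p = 0.999 by limma), with a 95% interval of -0.45 to 0.64, the narrowest of the 9. Without ZD8 both LLS ovaries were above all 3 SLS ovaries, at a difference of 0.17, which was also so for 7.53% of all genes in that comparison.

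FOXO1 (chromosome 11, 15317222 to 15410059, minus strand, 3 exons) was the member with the clearest shift once ZD8 was set aside. Its SLS levels were 20.1 (ZD2), 23.8 (ZD3) and 32.9 FPKM (ZD12), and its LLS levels were 18.4 (ZD5), 15.6 (ZD7) and 50.1 FPKM (ZD8). The LLS group thus held both the highest and the 2 lowest values. The means were 25.6 ± 6.57 FPKM in SLS (SD, n = 3) and 28.0 ± 19.1 FPKM in LLS (SD, n = 3), with a log2 difference of -0.04 (standard error 0.44, adjusted p = 0.999 by limma, 95% interval -1.06 to 0.98). Without ZD8 the difference was -0.54 (standard error 0.27, unadjusted p = 0.074, adjusted p = 0.934 by limma), and both remaining LLS ovaries lay below all 3 SLS ovaries, as they did for 11.5% of all genes. With limma's array weights, which count ZD8 less, it was -0.57 (unadjusted p = 0.046, adjusted p = 0.473 by limma), a size of p that 10.2% of all genes reached under those weights. Over all 6 ovaries the difference of FOXO1 turned to 0.084 by edgeR, 0.066 by DESeq2 and 0.11 with quantile normalization. By limma it was -0.19 without ZD2 and -0.07 without ZD3, and it turned to 0.15 without ZD12, 0.16 without ZD5 and 0.27 without ZD7. FOXO1 was not called in any fit. The granulosa list was mixed between ZD5 and ZD7 and the SLS ovaries. Its sum was 777 and 637 FPKM in ZD5 and ZD7 against 874 to 1271 FPKM in SLS, carried by INHA (285 and 162 FPKM against 376 to 726 FPKM), and FOXL2 was also lower (6.11 and 6.69 FPKM against 7.25 to 30.6 FPKM). FST (240 and 249 FPKM against 119 to 214 FPKM) and INHBA (4.26 and 4.66 FPKM against 2.33 to 4.11 FPKM) were higher, CYP19A1 was at or near 0 in every ovary, and the other 6 genes lay within the SLS range. In ZD8 the granulosa sum was lowest, while FOXL2, FSHR and AMH were highest there, as FOXO1 was. The part of these cells in the level of FOXO1 was not tested. Without ZD8, 0 of the 9 genes had an unadjusted p under 0.05 by limma, as 5.92% of all genes did.

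FOXO3, the factor that holds mouse oocytes at rest (chromosome 1, 74626673 to 74760323, plus strand), was at 15.0, 17.6 and 19.9 FPKM in ZD2, ZD3 and ZD12 and at 18.0, 17.2 and 37.1 FPKM in ZD5, ZD7 and ZD8. Apart from ZD8 its level was steady, 1.32-fold from lowest to highest over 5 ovaries. The group difference of 0.36 (standard error 0.34, adjusted p = 0.999 by limma, 95% interval -0.42 to 1.14) fell to 0.01 without ZD8, so that the higher LLS mean came from that ovary. FOXO4, the third of these factors (chromosome X, 57132549 to 57140377, plus strand), was at 7.05, 5.56 and 12.4 FPKM in SLS and at 6.28, 7.05 and 18.7 FPKM in LLS, in the same order of ovaries. ZD8 and then ZD12 had its highest levels, and the other 4 ovaries lay close together. Its difference was 0.23 (standard error 0.45, adjusted p = 0.999 by limma) and turned to -0.22 without ZD8.

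The proportions among the forkhead factors were also compared within ovaries. The log2 ratio of FOXO1 to FOXO3 was 0.40, 0.42 and 0.70 in ZD2, ZD3 and ZD12 and 0.03, -0.13 and 0.42 in ZD5, ZD7 and ZD8. FOXO1 was the more abundant of this pair in all ovaries but ZD7, and in ZD8, where both were raised, their ratio was within the SLS range. The groups differed by -0.40 (exact permutation test, two-sided, p = 0.3, adjusted p = 0.9), and leaving out any 1 ovary gave -0.55 to -0.28. The log2 ratio of FOXO4 to FOXO3 was below 0 in every ovary, between -1.50 and -0.64, and differed by -0.12 between groups (exact permutation test, two-sided, p = 0.8).

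**Figure D2:**
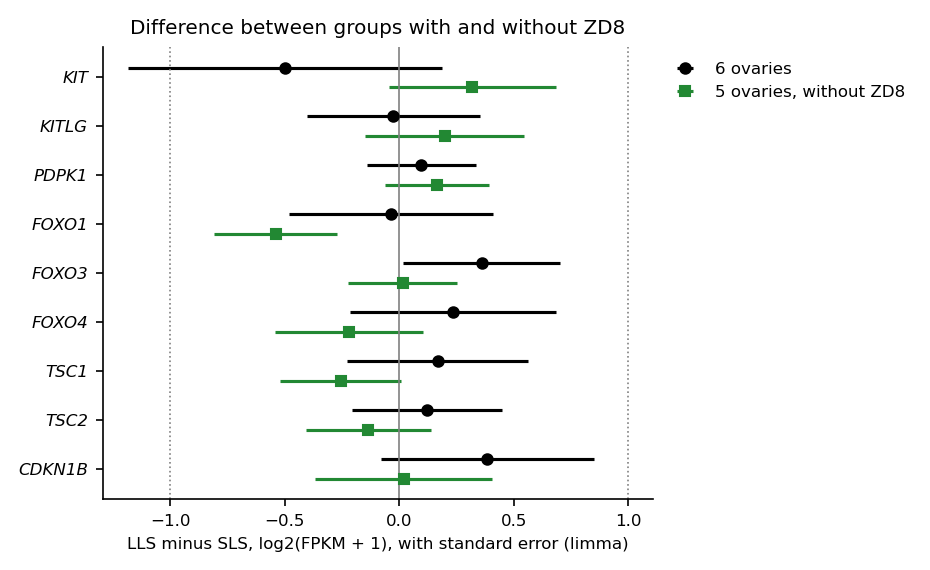
Difference of LLS from SLS in log2(FPKM + 1) for each gene (x axis; bars are standard errors from limma) with all 6 ovaries (circles) and with the 5 ovaries other than ZD8 (squares); dotted lines mark the fold threshold. Leaving out ZD8 moves KIT from -0.50 to 0.32 and FOXO1 from -0.04 to -0.54, and neither set passes the thresholds.

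TSC1 and TSC2 form the complex that keeps mTOR off. TSC1 (chromosome 1, 272636530 to 272685948, minus strand, 24 exons) was at 8.52, 8.02 and 12.2 FPKM in ZD2, ZD3 and ZD12 and at 7.38, 8.08 and 20.1 FPKM in ZD5, ZD7 and ZD8. As for FOXO4, ZD8 was highest and ZD12 next. The group difference was 0.17 (standard error 0.40, adjusted p = 0.999 by limma) and -0.26 without ZD8. TSC2, the subunit that AKT phosphorylates (chromosome 3, 39898924 to 39935579, minus strand, 42 exons), was at 23.5, 15.5 and 25.4 FPKM in SLS and at 17.7, 20.5 and 33.1 FPKM in LLS. Its groups overlapped widely, with a difference of 0.12 (standard error 0.33, adjusted p = 0.999 by limma) and of -0.13 without ZD8. TSC2 exceeded TSC1 in all 6 ovaries, by 0.70 to 1.37 on the log2 scale, with the smallest excess in ZD8. This excess differed by -0.05 between groups (exact permutation test, two-sided, p = 0.9). TSC2 shares 532 exon bases with PKD1 on the opposite strand, and whether the counting used strand is not stated, so part of its reads may be those of PKD1.

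CDKN1B, the inhibitor p27 that holds back cyclin-dependent kinases (chromosome 5, 59731224 to 59735831, minus strand), was at 11.7, 29.0 and 32.2 FPKM in ZD2, ZD3 and ZD12 and at 24.9, 20.6 and 49.6 FPKM in ZD5, ZD7 and ZD8. The lowest level was that of an SLS ovary and the highest that of ZD8, 4.22-fold apart. Its difference of 0.39 was the largest increase among the 9 (standard error 0.46, adjusted p = 0.999 by limma, 95% interval -0.68 to 1.45), and it was 0.02 without ZD8 and -0.05 without the SLS ovary ZD2.

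Ordered by the mean level per length over the 6 ovaries, KIT (121 FPKM) came first, followed by CDKN1B (28.0), FOXO1 (26.8), TSC2 (22.6), FOXO3 (20.8), PDPK1 (20.5), TSC1 (10.7), FOXO4 (9.50) and KITLG (8.18 FPKM). KIT was above CDKN1B in 5 of 6 ovaries, and PDPK1 was above TSC1 in 5 of 6, with ZD8 the exception each time. The neighbours from CDKN1B to PDPK1 did not keep their order: each stood above the next in only 3, 4, 3 and 1 of 6 ovaries, which is within their spread. TSC1 was above FOXO4 in 5 ovaries, and FOXO4 above KITLG in 3.

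ZD8 was the highest ovary for 6 of the 9 genes (44.6% of all tested genes) and the lowest for KIT and KITLG (26.3% of all tested genes), so that it was at an end of the range for 8 of 9 (70.9% of all tested genes). Its level lay more than 1 on the log2 scale above the median of the other 5 ovaries for FOXO1 (1.27), FOXO3 (1.03), FOXO4 (1.29) and TSC1 (1.21), a shift seen in 18.0% of all genes, where the median gene was higher by 0.23. It lay below that median by 2.37 for KIT, where 11.4% of genes were lower by over 1. The larger SD of log2(FPKM + 1) was in LLS for 7 of the 9 genes, where it was for 68.1% of all genes.

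**Figure D3:**
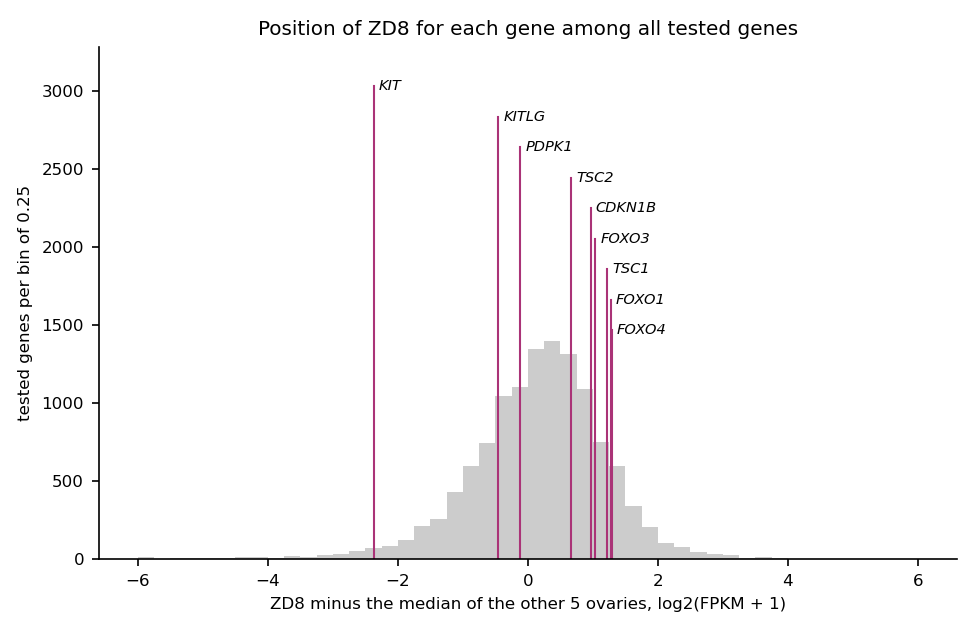
Histogram of the difference of ZD8 from the median of the other 5 ovaries, in log2(FPKM + 1) (x axis), over 12260 tested genes (y axis, genes per bin of 0.25), with the 9 genes as lines. KIT lies at -2.37, and FOXO1, FOXO3, FOXO4 and TSC1 lie between 1.03 and 1.29.

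The small RNA libraries of the same ovaries allowed FOXO1 to be set beside the 3 miRNAs shown above. miR-96-5p was at 99.8, 75.8 and 49.1 RPM in ZD2, ZD3 and ZD12 and, among LLS ovaries, at 137 (ZD5), 234 (ZD7) and 7.14 RPM (ZD8). From lowest to highest, its 6 ovaries stood in exactly the reverse order of FOXO1, from ZD8 with most FOXO1 and least miR-96-5p to ZD7 with least FOXO1 and most miR-96-5p. In the same sequence of ovaries, miR-183 was at 84.6, 105, 51.5, 184, 266 and 7.37 RPM, and miR-182 at 241, 424, 182, 602, 609 and 26.9 RPM. For both, the order was the reverse of FOXO1 except that ZD2 and ZD3 changed places, a rank correlation of -0.94 (-1 is exactly the reverse order). For each of these miRNAs, 552 of all 12260 genes (4.50%) had a rank correlation as low or lower. With FOXO1, 45 of 353 miRNAs (12.7%) had a rank correlation of -0.9 or lower. In ZD8 the 3 miRNAs summed to 41.4 RPM, against 282 to 1109 RPM in the others, and 62 to 234 reads lay behind each of its values.

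None of the other 8 genes stood in exactly the reverse order of miR-96-5p over the 6 ovaries. Their rank correlation with it was -0.83 for CDKN1B, -0.71 for FOXO3 and TSC1, and -0.6 for FOXO4 and TSC2. With both miR-183 and miR-182 it was -0.83 for TSC1, -0.77 for FOXO4 and TSC2, -0.66 for CDKN1B and -0.6 for FOXO3. For KIT, KITLG and PDPK1 it was positive with each of the 3 miRNAs. Exactly the reverse order of miR-96-5p was found for 128 of all 12260 genes (1.04%). In turn, 8 of 353 miRNAs (2.27%) were in exactly the reverse order of FOXO1, among them miR-340, miR-425-5p and miR-129a-5p. With ZD8 left out, the reverse order to miR-96-5p held for FOXO1 and for 168 genes (1.37%). This pattern was noticed in the data, and no test of it was made, since ZD8 stood apart in both kinds of library and 5 ovaries remain without it. None of the 3 miRNAs was called between groups: the log2 differences were -0.07 for miR-183, -0.19 for miR-96-5p and -0.29 for miR-182, with standard errors of 1.11 to 1.18 (adjusted p = 0.997 by limma for each). When edgeR's exact test was run on recovered reads of these 6 libraries, the differences had the other sign, 0.76 for miR-183, 0.56 for miR-96-5p and 0.38 for miR-182, each with an adjusted p of 1. Without ZD8 the limma differences were 1.51, 1.30 and 1.19, with adjusted p of 0.764 to 0.927 by limma. The same limma test called 0 of 353 miRNAs, with 0 at an unadjusted p under 0.05, and the edgeR test called 0 as well. The study itself used edgeR for miRNAs and reported miR-183 as lower in SLS, by sequencing and by RT-qPCR in a larger set of ovaries.

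**Figure D4:**
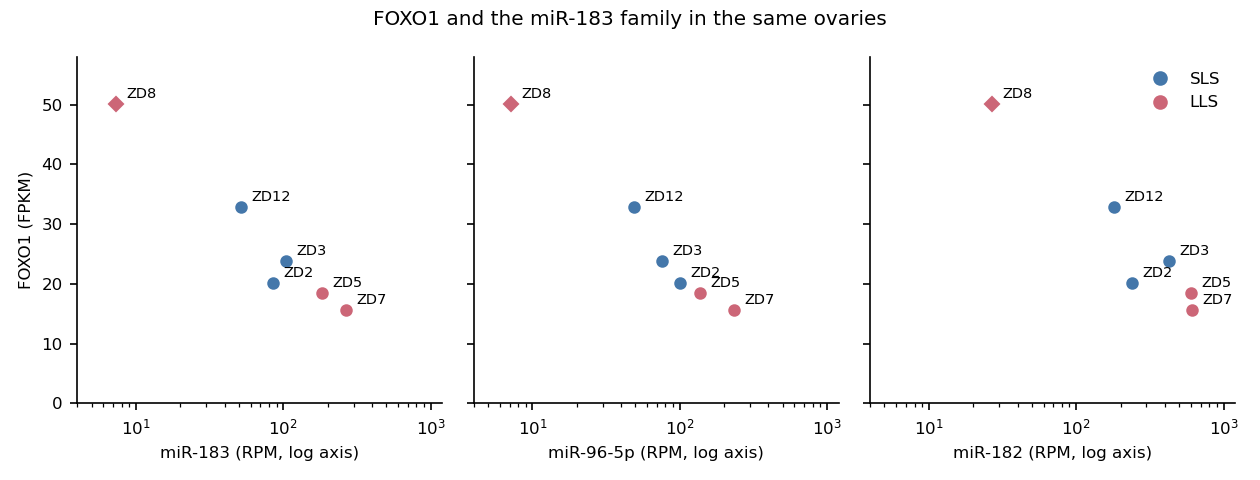
FOXO1 in FPKM (y axis, from 0) against miR-183, miR-96-5p and miR-182 in RPM (x axis, log scale) in the same 6 ovaries, coloured by group, with a diamond for ZD8. FOXO1 falls from 50.1 FPKM in ZD8 to 15.6 FPKM in ZD7 as miR-96-5p goes from 7.14 to 234 RPM.

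The wider pathway was read from 5 lists with 130 genes in all, of which 119 were tested. None was called by limma, with all 6 ovaries or without ZD8, and 1 had an unadjusted p under 0.05. ZD8 was highest for 43.7% of them, near the share of all genes. Groups did not overlap for 8 genes, 2 higher and 6 lower in LLS, where 1.95% of all genes were separate and higher and 3.17% separate and lower.

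Among 22 genes of KIT receptor signalling, the median difference of LLS from SLS was -0.12 on the log2 scale, and -0.10 without ZD8. CBL, a ubiquitin ligase that tags active receptors for breakdown, was the only gene with separate groups, at 16.7 ± 1.48 FPKM in SLS (SD, n = 3) and 19.1 ± 0.204 FPKM in LLS (SD, n = 3), a difference of 0.19 (standard error 0.23, adjusted p = 0.999 by limma). LYN, a SRC family kinase, had the largest difference, -0.55, or -0.21 without ZD8, with 2.37 FPKM in ZD8 against 4.43 to 7.46 FPKM in the others.

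Among 27 tested genes of PI3K and AKT the median was 0.15, which turned to -0.073 without ZD8, and ZD8 was highest for 16 of them. INPP4A, a phosphatase of PI3K products, was separate, at 8.63 ± 0.324 FPKM in SLS and 10.7 ± 1.80 FPKM in LLS (SD, n = 3 each), a difference of 0.27, or 0.16 without ZD8. IRS1, which links the insulin receptor to PI3K, had the largest difference, 0.67, and this fell to 0.04 without ZD8, the ovary with 49.2 FPKM beside 9.33 to 19.3 FPKM elsewhere. The 24 tested genes of TSC and mTOR had a median of 0.11, or -0.028 without ZD8, and no gene with separate groups. RICTOR, a subunit of mTORC2, led them with 0.44, or 0.10 without ZD8.

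Among 27 tested genes of FOXO control and FOXO targets the median was 0.02, or -0.11 without ZD8. YWHAB, a 14-3-3 protein of the kind that binds phosphorylated FOXO in the cytoplasm, was separate and lower in LLS, at 115 ± 9.23 FPKM in SLS and 86.0 ± 23.5 FPKM in LLS (SD, n = 3 each), with a difference of -0.45 (standard error 0.32, adjusted p = 0.999 by limma), or -0.21 without ZD8. TRIB1 had the largest difference, -0.62, and -0.07 without ZD8.

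Among 19 tested partners and relatives of p27 the median was -0.18, or -0.22 without ZD8, and 5 were separate and lower in LLS, beside 3.17% of all genes. They were CCNA2, CDK2, CDK1, CDKN2C and KPNA2, of which CDK1 and KPNA2 were named after their values were seen, to complete the count. CCNA2, the cyclin A of S phase, was at 13.0, 15.0 and 14.7 FPKM in ZD2, ZD3 and ZD12 and at 9.10, 10.1 and 7.91 FPKM in ZD5, ZD7 and ZD8. The highest LLS level was well under the lowest SLS level, and the difference of -0.60 (standard error 0.24, unadjusted p = 0.038, adjusted p = 0.999 by limma) was -0.52 without ZD8. CDK2, its kinase partner, was at 10.9 ± 0.756 FPKM in SLS and 7.93 ± 0.945 FPKM in LLS (SD, n = 3 each), with a difference of -0.42, or -0.50 without ZD8. CDKN2C, an inhibitor of CDK4 and CDK6, differed by -0.51, or by -0.32 without ZD8, CDK1 by -0.46, or -0.43 without ZD8, and KPNA2 by -0.50, or -0.21 without ZD8. The nearest values of the groups lay close for CDK1 (2.42 FPKM in ZD2 and 2.37 FPKM in ZD7) and for KPNA2 (38.0 FPKM in ZD2 and 36.2 FPKM in ZD7). The list was chosen with earlier results of these data known. None of the 5 passed the adjusted threshold. They were listed together as partners and relatives of p27, so they cannot be taken as independent of each other, and their dependence was not tested.

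**Figure D5:**
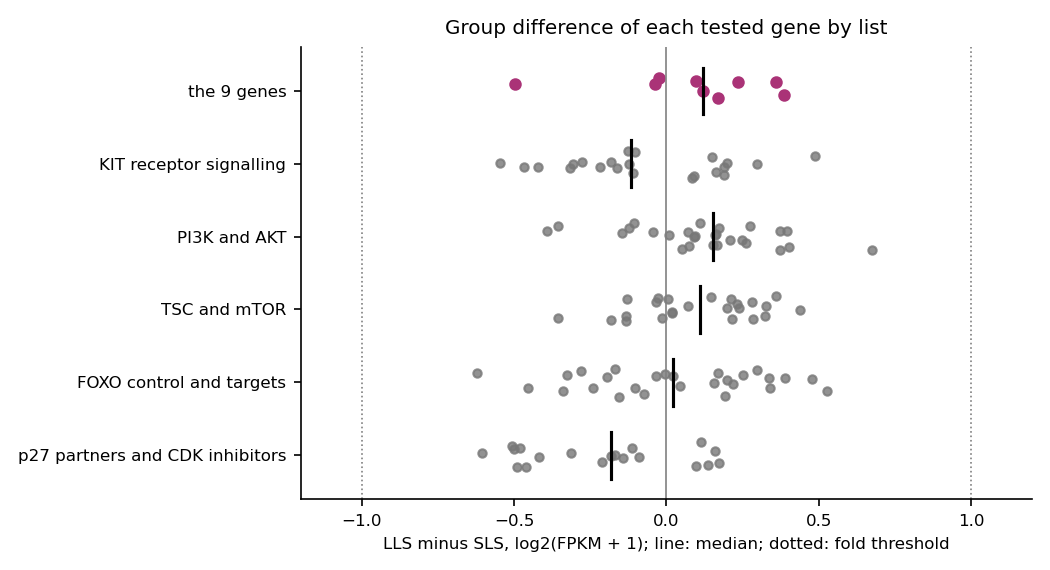
Difference of LLS from SLS in log2(FPKM + 1) (x axis) for each tested gene of the 9 and of the 5 pathway lists, with a line at each median and dotted lines at the fold threshold. No gene reaches the fold threshold, and the medians lie between -0.18 and 0.15.

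The genes most like a member over the 6 ovaries were found by Pearson's r of log2(FPKM + 1), as a description. For KIT they were LIPH, PELO and POSTN (r = 0.995, 0.993 and 0.993), and POSTN, the matrix protein periostin, had 4.31 FPKM in ZD8 and 32.4 to 114 FPKM elsewhere. For KITLG they were CUL2, XIAP and FZD3 (0.996, 0.994 and 0.994), and for FOXO1 LOC100158040, DSN1 and ZNF251 (0.993 each). Over the 5 ovaries without ZD8 they became ADAMTS3, TACC1 and PLK2 for KIT, ACADM, FAM13C and CUL2 for KITLG, and PRKRA, CTTNBP2 and RPL5 for FOXO1. CUL2 was the 1 gene among them that was named in both. With so few ovaries many genes reach such values: 123 genes had r above 0.95 with KIT, 72 with KITLG and 392 with FOXO1, and over the 5 ovaries without ZD8 the counts were 28, 217 and 190.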

How the data were processed

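Levels of genes and of mature miRNAs in 6 ovaries were analysed, 12 libraries in all. Reads were cleaned with NGSQCToolkit and aligned by HISAT2 to Sscrofa11.1 before the authors deposited FPKM values. The labels name BWA for the samples titled rep, taken here as the small RNA libraries, and the deposited miRNA values, named TPM, are RPM. The miRNA columns carry the ovary names alone and were matched to the ovaries by them. The counting programs are not given in the sources used here. Whole reads were recovered from RPM for 2618 of 2618 values above 0 (100%) and, using each gene's longest RefSeq transcript, from FPKM for 23477 of 23564 genes (99.6%), within 0.001 reads for values under 1000 reads. No column of values was left unused.

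R 4.3.3 with limma 3.58.1 fitted log2(value + 1) with a trended variance, for features with at least 1 FPKM or 1 RPM in at least 3 libraries. The study used DESeq2 for mRNA and edgeR for miRNA, both of which need reads. DESeq2 1.42.0 and edgeR 4.0.16 on recovered reads were therefore alternatives. The others were another pseudocount, no filter, rescaling, centring, quantile normalization, no trend, array weights and leaving out each ovary. The limma script was tested on simulated data. From each list, the genes with separate groups (at most 3, by p) and that with the largest difference were named. The members, lists and tests were chosen with earlier results of these data known. Transcripts, UTRs and coordinates are from the RefSeq annotation of Sscrofa11.1; protein sequences were not used here.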

Additional observations from a re-analysis of the deposited data

How the results depend on the processing

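Over 15 alternatives for each of the 9 genes, 116 of 135 differences kept their direction, 19 turned, and 0 genes were called; the cause of these changes was not tested. With array weights the log2 difference turned for KIT (0.46), KITLG (0.36), FOXO4 (-0.36), TSC1 (-0.31), TSC2 (-0.23), miR-183 (0.90), miR-96-5p (0.85) and miR-182 (0.56). FOXO1 turned with quantile normalization (0.11), edgeR (0.084) and DESeq2 (0.066), and the miRNAs turned by edgeR's exact test to 0.76, 0.56 and 0.38. With each ovary left out, the differences ran from -1.02 to 0.32 for KIT, -0.25 to 0.31 for KITLG, -0.54 to 0.27 for FOXO1, -0.22 to 0.53 for FOXO4, -0.26 to 0.41 for TSC1, -0.13 to 0.30 for TSC2, -0.051 to 0.64 for CDKN1B, -0.99 to 1.51 for miR-183, -1.12 to 1.30 for miR-96-5p and -1.03 to 1.19 for miR-182. The ratios ran from -0.12 to 0.78 for KITLG to KIT, -0.35 to 0.078 for FOXO4 to FOXO3 and -0.15 to 0.12 for TSC2 to TSC1. PDPK1 and FOXO3 were higher in LLS under each alternative run, FOXO3 by as little as 0.01. The count of genes called, 0 by limma, was 13 with array weights, 20 by DESeq2, 99 where the p was left unadjusted (fold threshold kept), and 0 to 20 with each ovary left out, where only the fit without ZD8 called any; edgeR's quasi-likelihood test called 0, with 220 at an unadjusted p under 0.05. The counts of members, of genes of the pathway lists and of miRNAs called stayed at 0. No paired analysis was possible because each ovary came from another sow and the labels pair no SLS with an LLS ovary.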

Other observations

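SOHLH1, a transcription factor of early oocytes, went against the other oocyte genes. It was at 11.2 and 10.5 FPKM in the LLS ovaries ZD5 and ZD7, between 1.66 and 2.78 FPKM in the SLS ovaries and at 0.493 FPKM in ZD8, where GDF9 (40.6 FPKM), ZP3 (40.4 FPKM) and KHDC3L (19.9 FPKM) were highest. It was chosen after its values were seen, and it was not tested.

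PKD1, which meets TSC2 tail to tail on chromosome 3, was close to TSC2 in level in every ovary, at 28.8, 16.4 and 26.4 FPKM in ZD2, ZD3 and ZD12 and at 17.7, 23.2 and 34.2 FPKM in ZD5, ZD7 and ZD8. The shared 532 bases are part of the 6446 exon bases of TSC2, and how reads in them were assigned was not tested.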
